A study of Mus musculus with 12 samples.

Results

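The genes described are 34 aminoacyl-tRNA synthetase genes, 18 of the cytosolic and 16 of the mitochondrial class, out of 22180 genes measured. They were taken from a list of symbols, each represented by the probe set that names that symbol alone and has the highest mean. Symbols ending in 2 were counted as mitochondrial. Their mRNA was measured on 12 arrays of total RNA from primary aortic smooth muscle cells of C57BL/6J mice, an inbred strain. All cells were at passage 3 to 4 in DMEM medium with 10% fetal calf serum, 6 samples being labelled with 0.3 g/l glucose (1.7 mM) and 6 with 4.5 g/l (25 mM). The series text gives 14 days of culture and the sample labels give 1 week. The labels name no genotype or drug beside the glucose level. They leave unsaid whether the replicates are separate cultures or mice, so the p-values rest on a spread between samples that may be technical.

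Aminoacyl-tRNA synthetases join each amino acid to its tRNA and so supply the ribosome with its building blocks. The cytosol and the mitochondrion mostly use enzymes of separate nuclear genes, while Gars (glycine) and Kars (lysine) each serve both compartments. Many of the cytosolic genes are known targets of ATF4, the transcription factor of the integrated stress response, which acts when amino acids run short or proteins misfold.

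Arrays differed in ways that touch every result below. Replicate 4 of 0.3 g/l stood apart from its group: its smooth muscle marker mean (8 genes, among them Myh11 and Tagln) was 10.29, against 8.89 to 9.12 on its 5 companions and 10.81 to 11.12 in 4.5 g/l. Txnip, a gene known to be induced by glucose, had a value of 10.85 on this array. Its group means were 7.84 ± 1.48 (SD, n = 6) in 0.3 g/l, with this array included in mean and SD, and 11.06 ± 0.14 in 4.5 g/l. All 8 smooth muscle markers were called higher in 4.5 g/l, against 7.01% of all genes. Of 10 endothelial markers the brightest were Cdh5, with means of 11.10 and 10.51, and Emcn, with 11.71 and 11.28, in 0.3 and 4.5 g/l. The dimmest was Cldn5, with 5.26 and 5.08. The mean of the 10 was 7.24 on 0.3 g/l replicate 4 and 7.01 to 7.07 on 4.5 g/l replicates 4 to 6, and 7.67 to 7.82 on the other 8 arrays. Of these 10, only Emcn passed the test between the glucose groups. None of 8 macrophage markers passed, with means of 4.85 to 5.15 on all arrays, and the leukocyte marker Ptprc, at 3.29 and 3.36, lay below 4.20, the bound of the dimmest 25% of genes. Of 8 fibroblast markers, Col14a1 was higher, Cd34 was lower and 6 did not pass. Cd34 was the brightest of the 8, with means of 9.72 in 0.3 g/l and 8.70 in 4.5 g/l. The mean of the 8 was 5.41 to 5.85 on all arrays. With 15.5% of all genes called either way, the small endothelial, macrophage and fibroblast counts are not read as results about those cells. In such bulk RNA, fewer cells of a type and less RNA per cell cannot be told apart. The part of cell composition in the results was not tested. Results are therefore given with and without 0.3 g/l replicate 4. This array was singled out by its values in these same data, which lay toward those of 4.5 g/l. Leaving it out tends to widen differences and to part the groups by construction, so results without it are no separate support.

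Cytosolic synthetase mRNAs were lower at 4.5 g/l glucose, and mitochondrial ones mostly differed little. Of the 18 cytosolic genes 13 fell and none rose in limma at a Benjamini-Hochberg adjusted p of 0.05 over all genes, against 8.52% of all genes called lower. Of the 16 mitochondrial genes 2 fell and 1 rose (7.01% of all genes were called higher). Together these 3 are 18.8% of the class, near the 15.5% of all genes called in either direction. At an unadjusted p of 0.05 in limma, 16 cytosolic genes were lower and none higher, and 4 mitochondrial genes were lower and 2 higher. The share of all genes at that unadjusted p was not counted, so these counts have no background. The median log2 difference (4.5 minus 0.3 g/l) was -0.53 in the cytosolic class, -0.12 in the mitochondrial class and -0.01 over all genes. The estimate was negative in 18 of 18 cytosolic and 11 of 16 mitochondrial genes, and in 51.8% of all genes. Without 0.3 g/l replicate 4, 15 cytosolic genes fell, against a background of 13.6%, with a median of -0.61. In the mitochondrial class 4 then fell and 2 rose (10.3% of all genes were called higher and 23.9% either way), with a median of -0.12. The classes are set side by side and the contrast between them was not itself tested. The cytosolic genes had mean log2 values of 6.82 to 11.71 and the mitochondrial ones of 5.72 to 8.77. As RMA, the method that made the values, compresses differences of dim probe sets, the size of differences can depend on that, which was not tested.

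**Figure D1:**
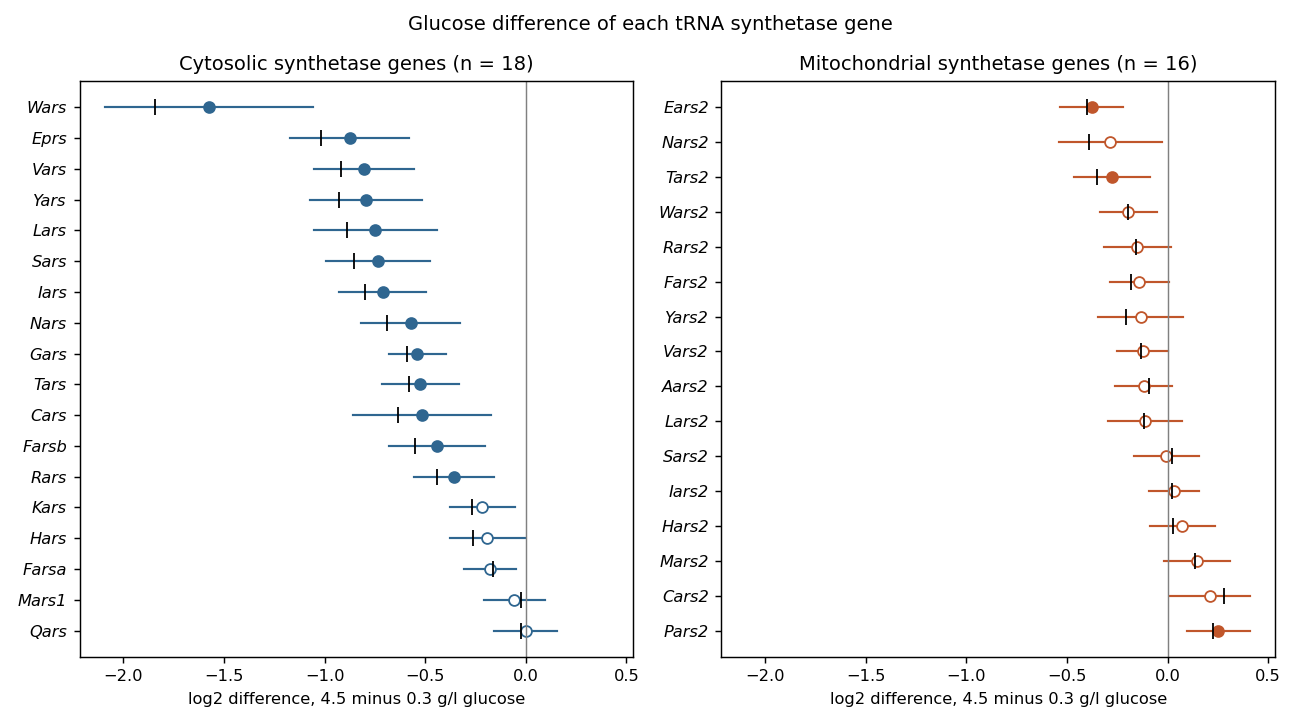
Log2 difference between 4.5 and 0.3 g/l glucose (x axis) of each gene (y axis), for the 18 cytosolic genes on the left and the 16 mitochondrial genes on the right. Circles are estimates from 12 arrays with 95% confidence intervals from limma, filled where the adjusted p was under 0.05, and black ticks are the estimates without 0.3 g/l replicate 4. Filled circles on the left run from -1.57 (Wars) to -0.36 (Rars), and on the right only Ears2, Tars2 and Pars2 are filled.

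The promoters of some members hold the letters of the element that ATF4 is known to bind together with C/EBP proteins, and these stretches are shown. RefSeq promoter windows (GRCm38.p6, 250 bases before to 50 after the start) were matched for 25 of the 34 genes, 11 cytosolic and 14 mitochondrial. The motif TGATGNAA, searched on both strands, occurred in 4 of the 11 cytosolic windows (Gars, Iars, Tars and Yars), in 0 of the 14 mitochondrial ones and for 4.51% of all genes with a window. Its form TGATGCAA, which lies within the former, was in 3 of the 11 (Iars, Tars and Yars) and for 1.03% of all genes. Capitals mark the match, which lies on the gene's own strand in Yars and is a reverse complement in Gars, Iars and Tars, reading TTTCATCA in Gars and TTGCATCA in Iars and Tars. The stretches run from 70 bases before to 20 after the start, except for Yars, where 30 bases around the match are shown because the annotated gene also reaches further upstream. They lie at chr6:55037931-55038020 (plus strand) for Gars, chr13:49682060-49682149 (plus) for Iars, chr15:11399639-11399728 (minus) for Tars and chr4:129189895-129189924 (plus) for Yars.
Gars: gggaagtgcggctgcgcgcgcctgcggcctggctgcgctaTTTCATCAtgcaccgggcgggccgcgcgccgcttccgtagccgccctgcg
Iars: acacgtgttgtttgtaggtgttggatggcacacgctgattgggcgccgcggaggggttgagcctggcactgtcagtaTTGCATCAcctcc
Tars: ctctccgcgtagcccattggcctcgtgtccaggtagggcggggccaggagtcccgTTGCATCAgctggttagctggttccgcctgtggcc
Yars: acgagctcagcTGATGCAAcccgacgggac
Matches began 30 bases before the start in Gars and 15 before it in Tars, and at base 8 after the start in Iars and base 4 in Yars. All 4 genes fell, with log2 differences of -0.54 for Gars, -0.71 for Iars, -0.52 for Tars and -0.79 for Yars. Of all 18 cytosolic genes 13 fell. Genes with and without the motif were not compared, and the part of ATF4 in the differences was not tested. A match is a description of letters and not a site of binding.

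For contrast, the letters GCGCATGC of the consensus of NRF1, a known activator of nuclear genes for mitochondrial proteins, were in 3 of 14 mitochondrial windows (Rars2, Vars2 and Wars2), in 0 of 11 cytosolic ones and for 3.05% of all genes. None of these 3 mitochondrial genes passed with 12 arrays, and 13 of the 16 genes of the class did not. The part of NRF1 was not tested. The Rars2 stretch (chr4:34614887-34614976, plus strand, 70 bases before to 20 after the start) is shown as an example, with the match in capitals as the reverse complement.
Rars2: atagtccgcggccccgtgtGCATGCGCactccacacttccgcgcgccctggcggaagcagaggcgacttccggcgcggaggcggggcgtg

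Wars, which charges tryptophan tRNA and is also known as an interferon-induced gene, had the largest difference of the 34. Its values ran from 9.14 through a median of 10.73 to 10.79 in 0.3 g/l, and from 8.61 through 8.89 to 9.14 in 4.5 g/l. The other 5 arrays of 0.3 g/l lay between 10.70 and 10.79, while replicate 4 lay at 9.14, level with the highest 4.5 g/l array. Wars was 2.98-fold lower in 4.5 g/l (log2 difference -1.57 ± 0.24, SE; limma adjusted p = 0.000881; probe set 17283930), and 3.58-fold lower without that array. Interferon response genes moved on the same arrays. Of 8 measured, 7 fell (median log2 difference -1.47), against 8.52% of all genes, among them Mx2 at -1.34 ± 0.29 and Oasl2 at -1.61 ± 0.38. Without replicate 4 of 0.3 g/l all 8 fell, against 13.6% of all genes. Ifit1 lay at 8.68 to 8.96 on the 5 other arrays of 0.3 g/l, at 5.35 on replicate 4 and at 5.24 to 6.90 in 4.5 g/l. The part of that response in the Wars difference was not tested.

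Eprs, a fused enzyme for glutamate and proline, was next among the cytosolic genes. It ran from 9.83 through 10.69 to 10.76 in 0.3 g/l and from 9.53 through 9.68 to 9.82 in 4.5 g/l. Only replicate 4 of 0.3 g/l came near the 4.5 g/l arrays, and the groups did not overlap. Its log2 difference was -0.88 ± 0.14 (limma adjusted p = 0.00103), a 1.83-fold lower level that became 2.03-fold without this array.

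Vars, the valine enzyme, and Yars, the tyrosine enzyme, followed closely. Vars ran from 7.50 through 8.18 to 8.24 in 0.3 g/l and from 7.10 through 7.27 to 7.39 in 4.5 g/l, with no overlap (1.75-fold lower, limma adjusted p = 0.0006). Yars ran from 8.80 through 9.61 to 9.64 and from 8.55 through 8.64 to 8.80, so its groups met at replicate 4 of 0.3 g/l (1.73-fold lower, limma adjusted p = 0.00118). With that array left out neither gene overlapped, and the folds were 1.89 and 1.90.

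Other members outside the multi-synthetase complex, a large assembly of cytosolic synthetases and scaffold proteins, fell by less. Sars (serine) ran from 10.86 through 11.54 to 11.59 in 0.3 g/l and from 10.51 through 10.71 to 10.91 in 4.5 g/l, and was 1.67-fold lower (limma adjusted p = 0.00123). Nars (asparagine) was 1.49-fold lower, with 10.77 to 11.54 against 10.72 to 10.88. In both, only 0.3 g/l replicate 4 lay within the range of the 4.5 g/l arrays. Gars ran from 11.73 through 12.02 to 12.09 and from 11.37 through 11.45 to 11.51. Its groups were tight and did not overlap, and it had the smallest adjusted p of the 34 genes (log2 difference -0.54 ± 0.07, limma adjusted p = 0.000241). Tars (threonine), with 9.92 to 10.36 against 9.52 to 9.88, was 1.44-fold lower and likewise did not overlap. Cars (cysteine) fell by 0.52 ± 0.16 on the log2 scale, with 8.08 to 8.88 against 7.72 to 8.50. Its call was among the least secure of the class (limma adjusted p = 0.0425), and it was lost with the replicate number as a block. It was also lost without any single array of 0.3 g/l other than replicate 4, and without replicate 1, 2 or 3 of 4.5 g/l, with log2 differences of -0.52 to -0.43. Farsb, the beta subunit of the phenylalanine enzyme, fell by 0.44 ± 0.11 (8.08 to 8.79 against 8.05 to 8.32).

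**Figure D2:**
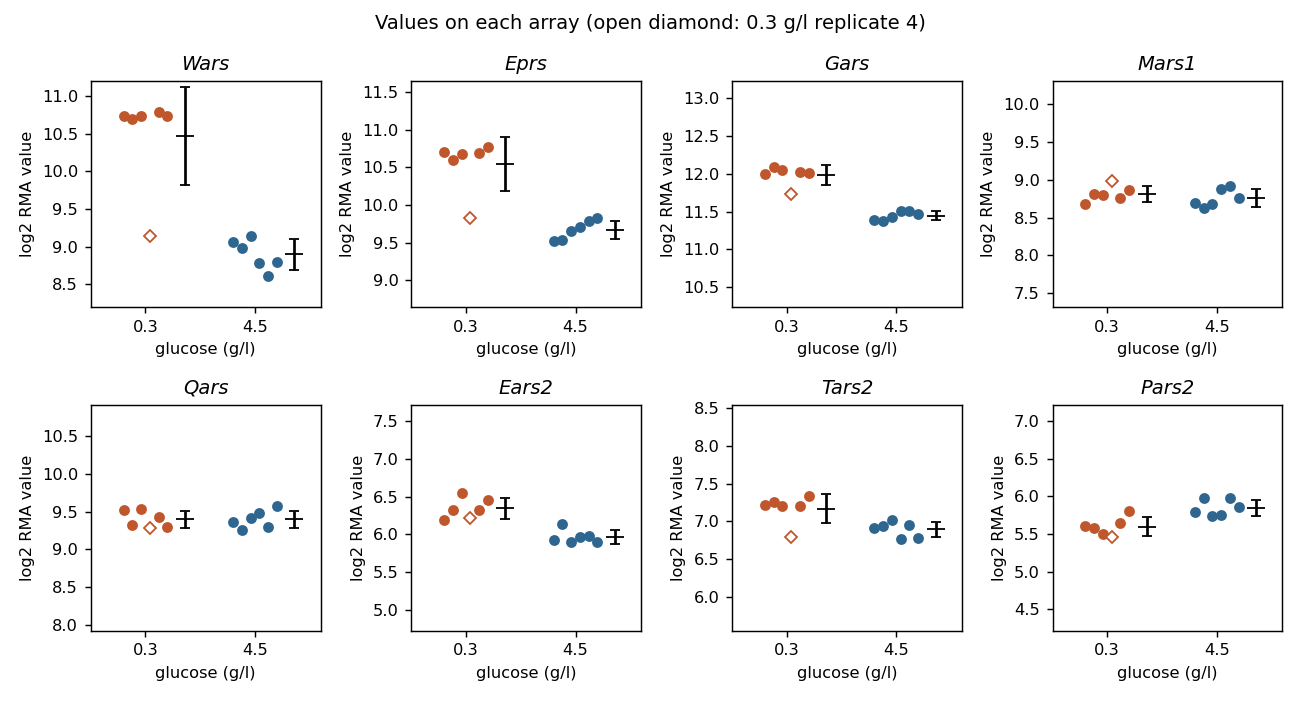
Log2 RMA values (y axis) of 8 genes on each array at 0.3 and 4.5 g/l glucose (x axis); points are arrays, the open diamond is 0.3 g/l replicate 4, and bars are the mean ± SD of 6 arrays, all panels spanning the same log2 width. Wars, Eprs, Gars and Ears2 do not overlap between the groups, while Mars1 and Qars do.

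Members of the multi-synthetase complex divided into fallers and genes with little difference. Of its 7 enzymes among these genes, 4 fell (Eprs, Iars, Lars and Rars), with a median log2 difference of -0.36, against 9 of 11 cytosolic genes outside it, with a median of -0.54. Without 0.3 g/l replicate 4 the counts were 5 of 7 and 10 of 11. Over all genes, 8.52% were called lower with 12 arrays and 13.6% without that array. The contrast between genes inside and outside the complex was not tested. Iars (isoleucine) ran from 10.60 through 11.09 to 11.18 in 0.3 g/l and from 10.14 through 10.35 to 10.47 in 4.5 g/l. The groups did not overlap, and it was 1.64-fold lower (limma adjusted p = 0.000554). Lars (leucine) was 1.68-fold lower and Rars (arginine) 1.28-fold lower. In both, 0.3 g/l replicate 4 (8.88 and 10.10) lay inside the 4.5 g/l range. Of the scaffold proteins of the complex, Eef1e1 fell by 0.45 ± 0.08 (limma adjusted p = 0.00263) and Aimp1 differed by -0.24 ± 0.10 (limma adjusted p = 0.141).

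The other 5 cytosolic genes did not pass with 12 arrays. Mars1, the methionine enzyme that charges initiator as well as elongator tRNA, ran from 8.68 through 8.80 to 8.99 in 0.3 g/l and from 8.63 through 8.73 to 8.91 in 4.5 g/l. Qars (glutamine) ran from 9.28 through 9.38 to 9.53 and from 9.26 through 9.38 to 9.57. Both overlapped widely, with 95% intervals of the log2 difference of -0.21 to 0.09 and of -0.16 to 0.16, and their signs turned under some alternatives. Farsa, the alpha subunit partner of Farsb, differed by -0.18 ± 0.06 (limma adjusted p = 0.0637). Kars differed by -0.22 ± 0.07 and Hars (histidine) by -0.19 ± 0.09. In Kars and Hars, 0.3 g/l replicate 4 lay inside the 4.5 g/l range. Without that array Kars and Hars passed (-0.27 and -0.26) and their groups did not overlap, whereas Mars1, Qars and Farsa did not pass.

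Of the 9 mitochondrial and 10 cytosolic enzymes of class I, defined by a shared catalytic fold, 1 and 8 fell, against 8.52% of all genes, a share the mitochondrial count is near. Of the 7 and 8 of class II, 1 and 5 fell, and Pars2, a mitochondrial one, rose. Without 0.3 g/l replicate 4 the class I counts lower were again 1 and 8 and those of class II were 3 and 7, against 13.6% of all genes, with Cars2 (class I) and Pars2 higher.

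With all arrays, the groups were fully apart in 6 of 18 cytosolic genes (Eprs, Gars, Iars, Tars, Vars and Wars) and in 1 of 16 mitochondrial genes (Ears2), each lower in 4.5 g/l, where 2.90% of all genes were. No member was fully higher in 4.5 g/l, where 3.49% of all genes were. With 0.3 g/l replicate 4 left out this held for 15 cytosolic and 4 mitochondrial genes, where 11.0% of all genes were, and again for no member in the higher direction (7.87%).

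The mitochondrial genes that passed were Ears2, Tars2 and Pars2. Ears2, the glutamate enzyme that also loads the glutamine tRNA before transamidation, ran from 6.19 through 6.32 to 6.55 in 0.3 g/l and from 5.89 through 5.94 to 6.14 in 4.5 g/l. Its groups did not overlap, replicate 4 of 0.3 g/l (6.21) lay with its own group, and it was 1.30-fold lower (log2 difference -0.38 ± 0.07, limma adjusted p = 0.00351). Tars2 ran from 6.79 through 7.21 to 7.34 and from 6.76 through 6.93 to 7.02 (log2 difference -0.28 ± 0.09, limma adjusted p = 0.0492). Pars2, the proline enzyme, ran the other way, from 5.46 through 5.59 to 5.80 and from 5.74 through 5.83 to 5.98, and rose by 0.25 ± 0.07 (limma adjusted p = 0.0306). Both of the latter genes overlapped between the groups and sat near the threshold. Tars2 lost its call without any single array except 0.3 g/l replicate 4 and 4.5 g/l replicate 3, at log2 differences of -0.29 to -0.24. Pars2 lost it without replicate 1, 2 or 3 of 0.3 g/l or replicate 2, 5 or 6 of 4.5 g/l, at 0.23 to 0.25.

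The other 13 mitochondrial genes did not pass with 12 arrays. Nars2 had a log2 difference of -0.29 ± 0.12, Wars2 of -0.20 ± 0.07, Rars2 of -0.15 ± 0.08, Fars2 of -0.14 ± 0.07, Yars2 of -0.13 ± 0.10, Vars2 of -0.12 ± 0.06, Aars2 of -0.12 ± 0.07 and Lars2 of -0.11 ± 0.09. On the other side lay Cars2 at 0.21 ± 0.09, Mars2 at 0.15 ± 0.08, Hars2 at 0.07 ± 0.08 and Iars2 at 0.03 ± 0.06, with Sars2 at -0.01 ± 0.08. Iars2 was the tightest of these, with a 95% interval of -0.09 to 0.16. Without 0.3 g/l replicate 4, Nars2 (-0.39) and Fars2 (-0.19) also passed as lower and Cars2 (0.28) as higher.

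Genes whose symbols share the same stem gave 12 pairs charging the same amino acid in the 2 compartments. By this rule Eprs was not paired with Ears2 or Pars2, nor Farsa or Farsb with Fars2. The cytosolic estimate was the more negative one in 12 of 12 pairs, with a median gap of -0.65 on the log2 scale. In 9 pairs the cytosolic gene alone passed as lower, and for threonine both did. The widest gaps were for tryptophan (-1.57 for Wars and -0.20 for Wars2), isoleucine (-0.71 for Iars and 0.03 for Iars2) and serine (-0.74 for Sars and -0.01 for Sars2). For cysteine the estimates had opposite signs, -0.52 for Cars and 0.21 for Cars2. The narrowest were for methionine (-0.06 and 0.15) and arginine (-0.36 and -0.15). The gaps were not tested.

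**Figure D3:**
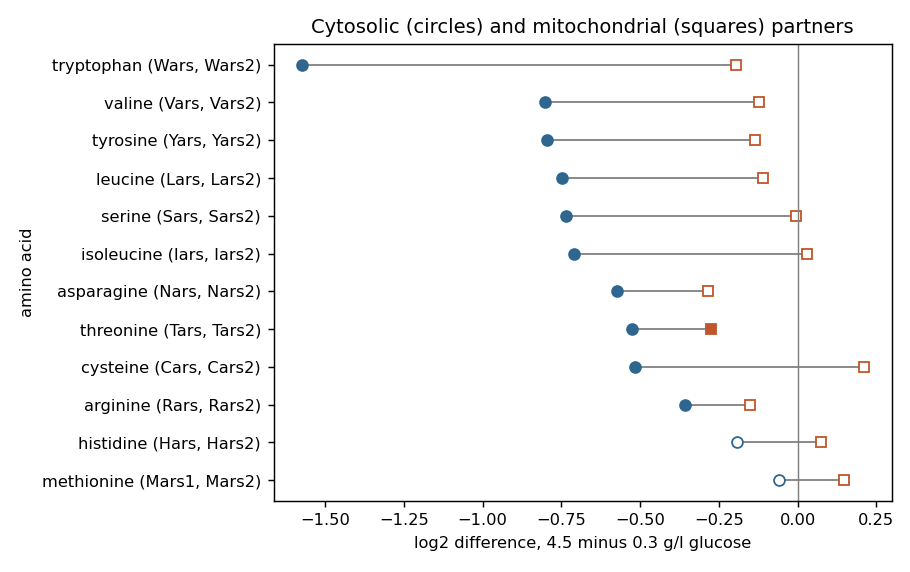
Log2 difference between 4.5 and 0.3 g/l glucose (x axis) for 12 amino acids with 1 gene per compartment (y axis); circles are cytosolic and squares mitochondrial genes, filled where the limma adjusted p was under 0.05. Each circle lies to the left of its square, with the widest gap for tryptophan.

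Array by array, the cytosolic class separated the groups and the mitochondrial class did not. The mean over the 18 cytosolic genes was 9.84 to 9.90 on 5 arrays of 0.3 g/l, 9.33 on replicate 4 and 9.18 to 9.32 in 4.5 g/l. Replicate 4 lay just above the highest 4.5 g/l array. The mean over the 16 mitochondrial genes was 6.77 to 6.90 on the 5 arrays, 6.74 on replicate 4 and 6.73 to 6.80 in 4.5 g/l, so the groups overlapped. The gap between the class means was 2.99 to 3.06, then 2.59, and 2.40 to 2.54. Replicate 4 of 0.3 g/l was nearer to the 4.5 g/l mean than to the mean of its own 5 companions in 16 of 18 cytosolic and 6 of 16 mitochondrial genes, and in 60.8% of all genes.

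**Figure D4:**
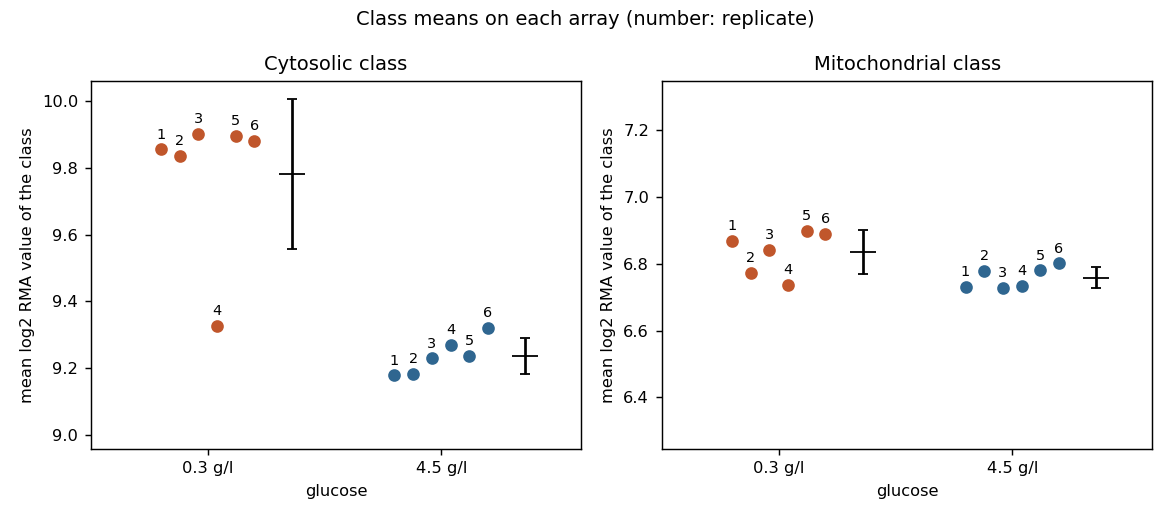
Mean log2 RMA value (y axis) of the cytosolic class on the left and the mitochondrial class on the right on each of 12 arrays at 0.3 and 4.5 g/l glucose (x axis), with replicate numbers beside the points and the mean ± SD of 6 arrays as bars; both panels span the same log2 width. In the left panel 5 arrays of 0.3 g/l lie at 9.84 to 9.90, above replicate 4 (9.33) and the 4.5 g/l arrays.

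**Figure D5:**
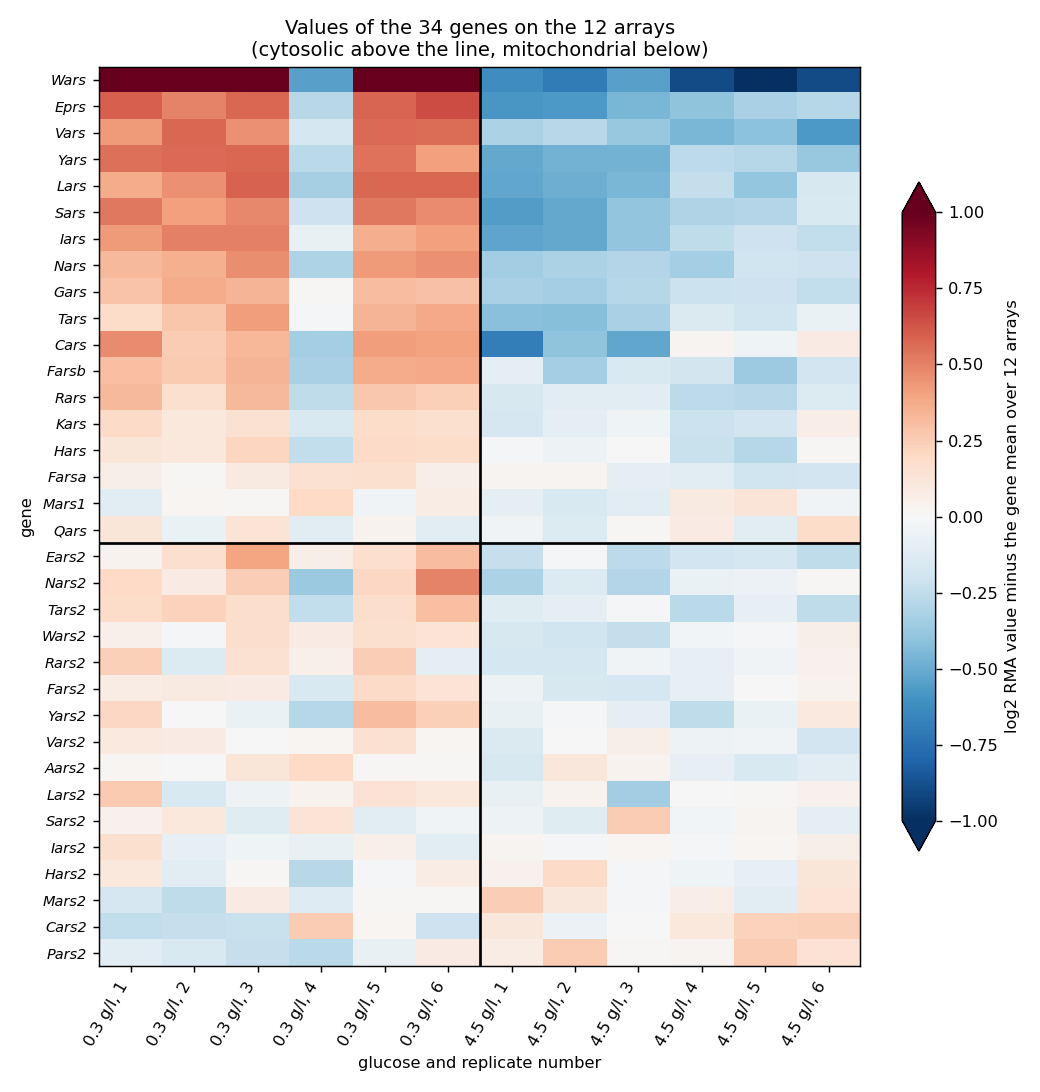
Log2 RMA value minus the gene's mean over 12 arrays (colour, limits -1 and 1 with stronger values in the end colours) for the 34 genes (rows, cytosolic above the line) on each array (columns). The red block at 0.3 g/l is broken by replicate 4 in most cytosolic rows and is faint in the mitochondrial rows.

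The 4.5 g/l arrays also differed among themselves. In 9 of 18 cytosolic genes replicates 4 to 6 were all above replicates 1 to 3, where 12.5% of all genes were (Cars, Eprs, Gars, Iars, Lars, Mars1, Sars, Tars and Yars). The step was widest for Cars, at 7.72 to 8.01 in replicates 1 to 3 and 8.37 to 8.50 in replicates 4 to 6. In 3 (Farsa, Vars and Wars) they were all below, where 15.3% of all genes were, with Wars at 8.99 to 9.14 and then 8.61 to 8.79. Among mitochondrial genes Nars2 and Wars2 were above. Both sets of replicates also differed in endothelial markers (above), whose part was not tested.

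Within replicates 1 to 3 of both groups, 13 cytosolic genes fell, against 7.16% of all genes called lower, 5.92% higher and 13.1% either way, and the median was -0.69. Within replicates 4 to 6 none passed in limma, against 0.0406% of all genes lower, 0.0947% higher and 0.135% either way, with a median of -0.41. At an unadjusted p of 0.05, 9 cytosolic genes and 1 mitochondrial gene were lower there and none higher (share of all genes not counted). With 0.3 g/l replicate 4 left out of the latter, 13 fell, against 8.94% lower, 6.55% higher and 15.5% either way, and the median was -0.57. Mitochondrial genes called lower numbered 2 (Nars2 and Tars2), 0 and 2 (Ears2 and Tars2) in these fits, and none was called higher. Ears2 did not pass within replicates 1 to 3 (log2 difference -0.37, limma adjusted p = 0.0841). Nor did it pass within replicates 4 to 6 with all their arrays (-0.39, limma adjusted p = 0.149).

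Other genes of tRNA charging and its control were taken from lists, whose counts stand beside 8.52% of all genes called lower with 12 arrays and 13.6% without 0.3 g/l replicate 4. In the amino acid response list, 30 of 33 genes fell and 1 rose (median log2 difference -0.93), and without that array 31 fell and 1 rose. Atf4 itself fell by 0.69 ± 0.10 (limma adjusted p = 0.000822), the pseudokinase Trib3 fell by 1.95 ± 0.23, the cationic amino acid transporter Slc7a1 fell by 0.93 ± 0.10 and the stress-induced Sesn2 fell by 0.65 ± 0.07. The member that rose was Slc38a2, a neutral amino acid transporter (0.29 ± 0.09). Of 6 kinases of initiation factor 2 and its partners, 2 fell, the endoplasmic reticulum kinase Eif2ak3 by 0.33 ± 0.07 and the initiation factor subunit Eif2s2 by 0.45 ± 0.11, and 3 fell without that array. Eif2ak4 (GCN2), the kinase that binds uncharged tRNA, differed by 0.13 ± 0.08 (limma adjusted p = 0.384).

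Of 12 genes of tRNA export, processing and ligation 5 fell, and 6 without 0.3 g/l replicate 4. Xpot, the nuclear export receptor for tRNA, had the smallest p of these. It lay at 9.88 to 9.97 on 5 arrays of 0.3 g/l, 9.14 on replicate 4 and 8.64 to 8.89 in 4.5 g/l, and fell 2.02-fold (limma adjusted p = 0.000207). Rpp40, a protein of ribonuclease P, fell by 0.61 ± 0.18 and the tRNA ligase Rtcb fell by 0.23 ± 0.06. Of 5 cytosolic elongation factors, Eef1g and Eef1d fell with and without that array, by 0.25 ± 0.06 and 0.17 ± 0.05, while Eef1a1, which carries charged tRNA to the ribosome, differed by -0.03 ± 0.05. Of 5 mitochondrial ones, Tufm and Tsfm fell, by 0.20 ± 0.06 and 0.26 ± 0.08. Tsfm was at the threshold (limma adjusted p = 0.0498) and did not pass without 0.3 g/l replicate 4 (-0.25), whereas Gfm1, an elongation factor of the same list, passed only without it (-0.24). Of the mitochondrial amidotransferase that completes glutamine tRNA charging after Ears2, Gatc fell by 0.47 ± 0.07 (limma adjusted p = 0.000626), whereas Gatb and Qrsl1 differed by -0.10 ± 0.07 and -0.05 ± 0.09. Mtfmt, which formylates the mitochondrial initiator tRNA, differed by 0.10 ± 0.07. Prorsd1, Sepsecs and Pstk, from a list of related genes, did not pass in limma with or without that array, with log2 differences of 0.10 ± 0.08, 0.02 ± 0.10 and 0.19 ± 0.09.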

How the data were processed

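The values are the authors' deposited log2 values, 1 per array for each probe set. Per the submitters' processing notes they came from Expression Console (Affymetrix) by RMA, a method that subtracts background, gives all arrays the same quantiles and sums up each probe set; versions and genome build are not given in the sources used here. Quantile normalization hides a change in total RNA per cell. The table held 41345 probe sets, of which 23521 named 1 gene, 1814 several and 16010 none here. Each of 22180 genes was represented by its probe set with the highest mean. Groups came from the sample titles. The main test was limma 3.58.1 (two-sided, lmFit then eBayes, run under R 4.3.3) on 2 groups of 6 without a block. P-values were Benjamini-Hochberg adjusted across the 22180 genes, and 0.05 was the threshold. The fit was tested on simulated data with independent noise and no outlying array, so that test does not cover the differences between arrays described above. Precision is limited by the number of arrays: over all genes, log2 differences had a median SE of 0.0931. Genes named by rule are all members, up to 3 called genes of smallest p in each list, the scaffold and amidotransferase lists whole, and Myh11, Acta2, Tagln and Txnip as checks. Named after their values were seen were Atf4, Slc38a2, Eif2ak4, Eef1a1, Gfm1, Prorsd1, Sepsecs, Pstk, Cdh5, Emcn, Cldn5, Ptprc, Col14a1 and Cd34. The members and lists were chosen with earlier results of these data known. Same-numbered arrays were not taken as pairs. Protein sequences were not used here. Figures were drawn with matplotlib 3.10.9.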

Additional observations from a re-analysis of the deposited data

Results flagged for a closer look

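In groups of 6 arrays, the highest or lowest array was compared with its nearest neighbour by Dixon's ratio at its 95% critical value, for the 34 genes in both groups (68 groups) and for the class means. Chance would mark about 1 in 20 independent groups, and 18 of 68 were marked. The groups share the same arrays and are not independent, and the share marked over all genes was not counted. Of these, 16 were replicate 4 of 0.3 g/l, in 14 cytosolic and 2 mitochondrial genes, where it lay below its 5 companions. Its cytosolic values were 8.08 for Cars, 9.83 for Eprs, 8.08 for Farsb, 11.73 for Gars, 9.05 for Hars, 10.60 for Iars, 9.32 for Kars, 8.88 for Lars, 10.77 for Nars, 10.10 for Rars, 10.86 for Sars, 7.50 for Vars, 9.14 for Wars and 8.80 for Yars. Its mitochondrial values were 6.90 for Fars2 and 6.79 for Tars2. The mean of the cytosolic class on this array, 9.33, was marked in the same way, against 9.84 to 9.90 on the others of its group. That mean is made of the same genes and is no separate sign. In 4.5 g/l, replicate 2 stood above its group for Ears2 (6.14, the others 5.89 to 5.97) and replicate 3 below it for Lars2 (6.69, the others 6.96 to 7.07).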

How the results depend on the processing

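The count of cytosolic genes called lower was 13 with 12 arrays, 0 within replicates 4 to 6 alone, and within 1.5 times of the main count under every other alternative run; 0 cytosolic genes were called higher in any. With single arrays left out it ranged from 12 to 15, and the median from -0.61 to -0.51. The mitochondrial count called lower (2) was 1 after cyclic loess, 5 with array weights, 0 within replicates 4 to 6 and 1 to 4 with single arrays left out, 4 being without 0.3 g/l replicate 4. The mitochondrial count called higher (1, Pars2) was 0 after quantile normalization, after median centring, within replicates 1 to 3 and within replicates 4 to 6 with or without 0.3 g/l replicate 4, 2 with array weights, and 0 to 2 with single arrays left out, when the class median ranged from -0.13 to -0.10. The count of genes changed over all genes was 3444, and 5419 with array weights, 30 within replicates 4 to 6, and 2514 to 5295 with single arrays left out, 5295 being without 0.3 g/l replicate 4. Every gene called with 12 arrays kept its sign in all 24 alternatives, and among the rest Mars1, Qars, Hars2, Iars2 and Sars2 changed it. Cars lost its call in 10 alternatives, Tars2 in 13 and Pars2 in 11, while Ears2 kept its call in 22 of the 24. The cause was not tested. The replicate number does not mark a stated pairing: same-numbered arrays' deviations correlated between -0.05 and 0.17, and 1 of 6 arrays matched its own number best. With the replicate block 12 cytosolic genes were lower (Cars was lost), 2 mitochondrial genes were lower and 1 was higher.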
